A study of Mus musculus with 16 samples.

Results

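The 10 genes described here encode parts of the focal adhesion, the site at which a cell grips its surroundings, and of the integrins that form it. They were chosen by genotype differences in these count files and by their role, and the rule names Ptk2, Ptk2b, Actn1, Actn4, Itgb1, Itgb2, Itga4, Itgal, Vcl and Tln1, which are 10 of the 50686 genes in the files. The rule reads the levels in each line by genotype and by Senexin B within a line. It states that Ptk2 is lower and Actn1 higher in lines without Cdk8. Differences between genotypes are given for these 10 genes as a description, without a test. The response to Senexin B, for which the rule states no direction, was tested. Since the rule names the Senexin B values too, the p-values of the 10 genes cannot be taken as independent of their choice.

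RNA was sequenced from leukaemic pro-B cell lines that were grown from the bone marrow of C57BL/6N mice and immortalised by a retrovirus carrying BCR-ABL1p185+, the fusion kinase of a B-cell acute lymphoblastic leukaemia. The 4 lines labelled wild-type are Cdk8 fl/fl in the study's methods, with a floxed Cdk8 that was not deleted, and the 4 lines labelled Cdk8-ko are Cdk8 Δ/Δ Vav-Cre, in which a Cre recombinase driven by the blood-cell promoter Vav had removed part of Cdk8, a kinase of the mediator complex of transcription. Each line was kept for 48 h in 0.01% DMSO and, separately, in 1 µM Senexin B, an inhibitor of CDK8 and its relative CDK19, which gave 16 libraries in 4 groups of 4. Each line arose individually, is cultured and immortalised, and carries the same oncogene in both genotypes. The groups therefore describe these 8 lines and not B-cell precursors in an animal. Without a block, p-values measure the spread between lines. In fits that give each line its own level (the line as a block), they measure how the change within a line varies between lines.

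Integrins are surface receptors made of an α and a β chain. On lymphocytes α4 with β1 (VLA-4) binds VCAM-1 and fibronectin and helps to hold B-cell precursors on bone marrow stroma, and αL with β2 (LFA-1) binds the ICAM proteins of neighbouring cells. Inside the cell talin opens the integrin, vinculin and α-actinin tie it to actin filaments, and the kinases FAK and PYK2 pass on the signal of attachment.

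Library depth, the sum of gene counts, was 13145876 to 18349425, with a median of 15473665. Levels are given as CPM, the count divided by the library total and multiplied by 1000000, after TMM scaling, and as CPM per kilobase of exon where genes are compared with each other. The 10 pro-B cell markers were present in all 16 libraries, with a summed level between 5940 and 9335 CPM, while the summed stromal, erythroid and megakaryocyte markers did not exceed 2.87 CPM in any library. The T-cell list reached 133 CPM, nearly all of it Lck, and the myeloid list 25.1 CPM. The targeted gene was lower but not absent: Cdk8 was 61.8 to 68.7 CPM in wild-type and 35.3 to 52.1 CPM in Cdk8-ko lines with DMSO, in counts that cover the whole gene and so include exons outside the deleted part. With Senexin B the genotypes overlapped in Cdk8, at 55.2 to 89.4 CPM in wild-type and 41.2 to 61.7 CPM in Cdk8-ko lines. In bulk RNA, fewer cells with a transcript and less of it in each cell cannot be told apart.

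**Figure D1:**
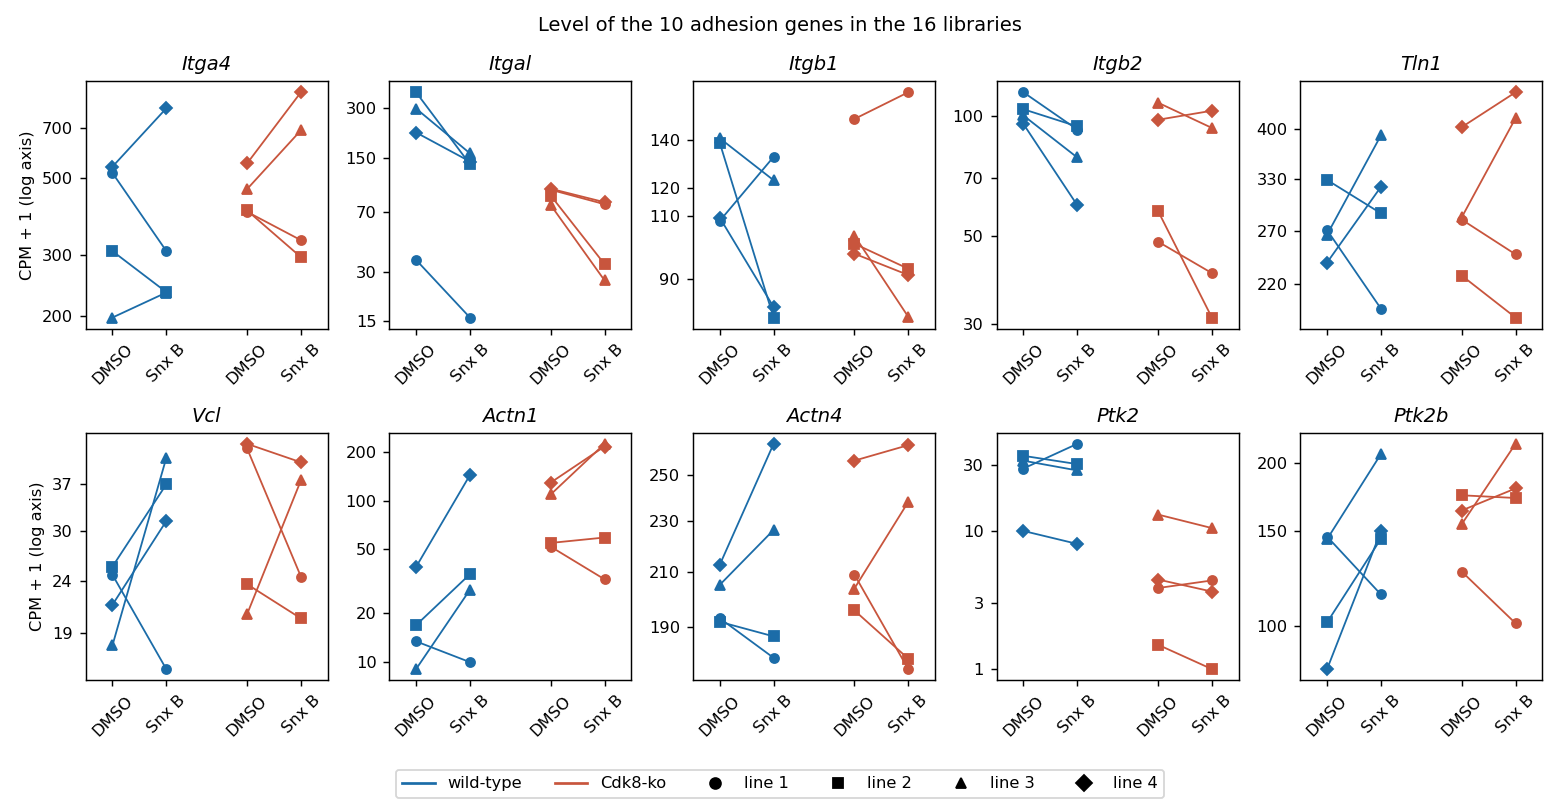
Level of each of the 10 genes as CPM + 1 on a logarithmic axis whose range differs between panels, with DMSO and Senexin B of the same line joined. Blue lines are wild-type and red lines Cdk8-ko, and the symbol gives the line number. Ptk2 lay lower in the red lines except that blue line 4 was below red line 3, Actn1 lay higher in the red lines with DMSO, and Itgal descended in every line.

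In the wild-type lines with DMSO, the order of the levels per kilobase began with 6 genes close together. Itgal stood first at 35.1 ± 22.3 CPM per kilobase (SD, n = 4), followed by Itgb2 at 33.6 ± 2.68, Actn4 at 32.6 ± 1.62, Itgb1 at 30.2 ± 4.38, Tln1 at 28.1 ± 3.84 and Itga4 at 27.9 ± 11.9 CPM per kilobase. None of these neighbours differed by more than their spread. Ptk2b followed at 15.9 ± 4.27 CPM per kilobase, and then, again within their spread of each other, Ptk2 at 5.11 ± 2.27, Vcl at 4.11 ± 0.66 and Actn1 at 3.35 ± 2.40 CPM per kilobase. In the Cdk8-ko lines with DMSO, Actn1 stood above Itgal, at 15.4 ± 7.08 against 13.4 ± 1.39 CPM per kilobase, and Ptk2 was last at 0.95 ± 1.03. The level of Vcl is uncertain, because 2087 of its exonic bases, 39.9% of its length, are shared with Ap3m1 on the opposite strand and the counting did not use strand. The other overlaps of the 10 genes are smaller, the largest being 1124 bases (8.04%) of Itga4 that are shared with Cerkl.

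The genes fell into steady and variable ones. The standard deviation of log2(CPM + 1) between the line means of a genotype, pooled over both genotypes, was 1.15 for Ptk2, 1.11 for Actn1 and 1.16 for Itgal. Its median over all 14164 genes tested in 16 libraries was 0.28. These 3 genes lay at percentiles 94.8, 94.4 and 94.9 of that distribution. Actn4 was the steadiest of the 10, with a standard deviation of 0.19 at percentile 23.7. Members of a pair with the same role differed in this standard deviation. It was 1.11 for Actn1 against 0.19 for its paralogue Actn4, and 1.15 for Ptk2 against 0.30 for its relative Ptk2b. Over all 8 lines, Actn1 ranged over 3.87 log2 units and Actn4 over 0.48, and Ptk2 over 4.84 and Ptk2b over 0.71. These ranges include the genotype difference for which the rule names Ptk2 and Actn1, so nothing is read from them.

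Ptk2 encodes FAK, the kinase that gathers at engaged integrins. It lies on chromosome 15 from 73205105 to 73423191 (GRCm38, minus strand; ENSMUSG00000022607.14). With DMSO, the wild-type lines 1 to 4 had 27.5, 34.2, 31.4 and 9.03 CPM of Ptk2, and the Cdk8-ko lines 2.87, 0.50, 12.2 and 3.46 CPM. Line 4 of the wild-type genotype lay apart from its 3 companions and below line 3 of the Cdk8-ko genotype, so the groups overlapped. The log2 fold change of Ptk2 was -2.42 (standard error, SE, 0.83) with DMSO and -2.75 (SE 1.10) with Senexin B. Leaving out any 1 of the 8 DMSO libraries gave values from -3.49, without line 3 of the Cdk8-ko genotype, to -2.05, without line 2 of that genotype. With Senexin B, the wild-type lines had 42.0, 29.6, 26.6 and 7.08 CPM and the Cdk8-ko lines 3.39, 0, 9.53 and 2.65 CPM. Wild-type line 4 was again the lowest of its genotype and below Cdk8-ko line 3. The library at 0 had no read on Ptk2, which allows up to 0.206 CPM, the value of 3 counts, for counting error only. By group means, Ptk2 was ordered wild-type with Senexin B (26.3 CPM), wild-type with DMSO (25.5 CPM), Cdk8-ko with DMSO (4.76 CPM) and Cdk8-ko with Senexin B (3.89 CPM), and neighbours of the same genotype did not differ beyond their spread.

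Ptk2b encodes PYK2, the FAK relative that is common in blood cells. It was measured at 82.1 to 145 CPM in wild-type and 125 to 173 CPM in Cdk8-ko lines with DMSO, and the groups overlapped. Its log2 fold change between genotypes was 0.38 (SE 0.21) with DMSO and 0.12 (SE 0.27) with Senexin B. Per kilobase, the mean of Ptk2b exceeded that of Ptk2 in both genotypes, 15.9 against 5.11 CPM per kilobase in wild-type and 20.7 against 0.95 in Cdk8-ko lines with DMSO.

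Actn1 encodes α-actinin-1, which cross-links actin filaments and binds integrin β chains. It lies on chromosome 12 from 80167547 to 80260371 (GRCm38, minus strand; ENSMUSG00000015143.15). With DMSO, the wild-type lines 1 to 4 had 12.4, 15.9, 7.99 and 37.8 CPM of Actn1, and the Cdk8-ko lines 50.8, 53.7, 108 and 129 CPM. The groups did not overlap, and the log2 fold change was 2.21 (SE 0.53). Among the 10 genes Actn1 alone had groups that did not overlap with DMSO, and among all 13174 genes tested 3.14% had such groups; since the rule names Actn1 for this contrast, nothing is read from the count. With Senexin B, the wild-type lines had 8.93, 34.0, 27.0 and 143 CPM and the Cdk8-ko lines 31.5, 58.1, 225 and 216 CPM. Line 4 of the wild-type genotype then lay above lines 1 and 2 of the Cdk8-ko genotype, and the log2 fold change was 1.32 (SE 0.90). With Senexin B none of the 10 genes had groups that did not overlap, against 0.999% of all 13010 genes tested. Actn4, the second α-actinin of these cells, had 191 to 212 CPM in wild-type and 195 to 255 CPM in Cdk8-ko lines with DMSO, and its log2 fold change was 0.11 (SE 0.12).

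The line that stood apart in its genotype was the same for both genes: wild-type line 4 had the lowest Ptk2 and the highest Actn1 of its genotype under both treatments. In the Cdk8-ko lines the same opposition was not seen, as line 3 had the highest Ptk2 of its genotype and also, with Senexin B, the highest Actn1.

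Itgal encodes the α chain of LFA-1 and lies on chromosome 7 from 127296260 to 127335138 (GRCm38, plus strand; ENSMUSG00000030830.18). With DMSO, the wild-type lines 1 to 4 had 34.5, 376, 299 and 213 CPM of Itgal, and the Cdk8-ko lines 94.5, 87.0, 76.0 and 95.8 CPM. The Cdk8-ko lines were close to each other, 3 of the wild-type lines were above all of them and wild-type line 1 was below all of them. The log2 fold change between genotypes was -1.38 (SE 0.58) with DMSO, and it was -1.74 without wild-type line 1 and -1.06 without wild-type line 2. Its partner Itgb2, the β2 chain, had 114, 103, 99.3 and 94.5 CPM in the wild-type lines and 47.3, 56.7, 107 and 96.8 CPM in the Cdk8-ko lines. Lines 1 and 2 of the Cdk8-ko genotype were below every wild-type line and lines 3 and 4 were among them, and the log2 fold change was -0.41 (SE 0.26).

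The VLA-4 chains showed smaller differences between genotypes. Itga4, the α4 chain, ranged from 197 to 539 CPM in wild-type and from 399.5 to 551 CPM in Cdk8-ko lines with DMSO, a log2 fold change of 0.22 (SE 0.31). Itgb1, the β1 chain, ranged from 107 to 140 CPM and from 96.5 to 148 CPM, a log2 fold change of -0.14 (SE 0.17). The adaptors were alike in this respect: Tln1, the talin of blood cells, ranged from 238 to 328 CPM and from 226 to 402 CPM, a log2 fold change of 0.12 (SE 0.19). Vcl, vinculin, ranged from 17.0 to 24.6 CPM and from 19.7 to 43.4 CPM, with lines 1 and 4 of the Cdk8-ko genotype above every wild-type line, and had a log2 fold change of 0.58 (SE 0.29) with DMSO and -0.04 (SE 0.35) with Senexin B.

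**Figure D2:**
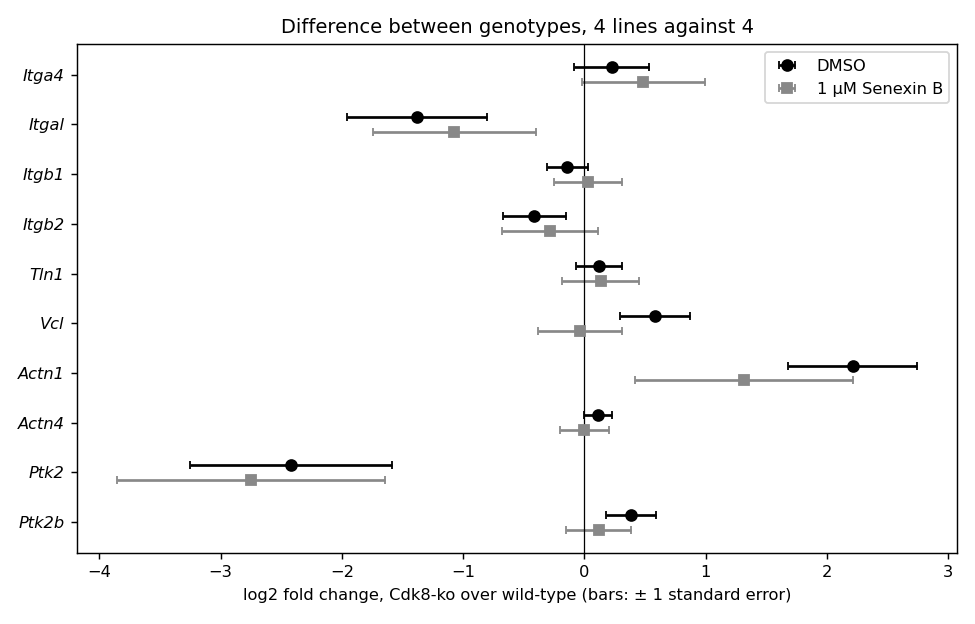
Log2 fold change of the 10 genes between Cdk8-ko and wild-type lines with DMSO (black circles) and with 1 µM Senexin B (grey squares), 4 lines against 4, with bars of 1 standard error to each side. Ptk2 at -2.42 and Actn1 at 2.21 lie farthest from 0 with DMSO, and the other genes but Itgal lie between -0.41 and 0.58.

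Across all genes, 1 of 13174 was called between genotypes with DMSO (0.00759%; edgeR quasi-likelihood test, adjusted p below 0.05, fold beyond 2), where DESeq2 called 20, and 0 of 13010 with Senexin B, where 202 (1.55%) had an unadjusted p under 0.05 and DESeq2 called 3. The other adhesion genes, 122 in 5 lists of integrin subunits, integrin activators, adaptors and kinases, actin cross-linkers and integrin ligands, were tested where their counts allowed. With DMSO 65 of the 122 were tested, none was called, and their median log2 fold change was -0.06 against 0.00 over all genes tested. An unadjusted p under 0.05 was found for 5.32% of all genes with DMSO and for 2 of these 65, Actg1, a cytoplasmic actin, at -0.64 (SE 0.26), and Ezr, ezrin, which links membranes to actin, at -0.41 (SE 0.18), with an adjusted p of 0.897 for each. Actg1 has processed pseudogenes that can share its reads, so its level of 3.75 to 10.1 CPM with DMSO is uncertain. With Senexin B the smallest p of the list was that of Spp1, the integrin ligand osteopontin, at -2.44 (SE 0.82, adjusted p = 1.00), with 9.79, 80.1, 59.8 and 45.8 CPM in the wild-type lines 1 to 4 and 1.21, 17.1, 5.89 and 11.9 CPM in the Cdk8-ko lines. The groups overlapped through wild-type line 1. In the same comparison, Itga5, the α chain of the fibronectin receptor, had a log2 fold change of 3.75 (SE 1.38, adjusted p = 1.00), which came from lines 1 and 2 of the Cdk8-ko genotype at 39.7 and 11.7 CPM, against 4.92 and 0.49 CPM in lines 3 and 4 and 0.14 to 3.31 CPM in the wild-type lines.

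The study itself lists 7 focal adhesion genes, which it chose on these samples, so their direction is no independent evidence. Of the 5 that could be tested with DMSO, 4 had negative log2 fold changes, Ptk2, Igf1r, Itga9 and Spp1, and 1 had a positive one, Actn1. Igf1r, the IGF-1 receptor, had a log2 fold change of -2.77 (SE 1.15) at 0.31 to 6.30 CPM in wild-type and 0 to 0.83 CPM in Cdk8-ko lines with DMSO. Itga9, the α9 chain, had -2.15 (SE 1.17) and Spp1 -1.06 (SE 0.66). The groups of all 3 overlapped. Thbs3 and Lama5 were too low to be tested with DMSO; Lama5, a laminin chain, was at 5.72 and 11.3 CPM in lines 3 and 4 of the Cdk8-ko genotype and at most 0.31 CPM in the other 6 lines.

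The response to Senexin B was read within each line, because DMSO and Senexin B libraries of the same number deviated together from their group means, with correlations of 0.59 to 0.78 over 14164 genes in the wild-type and 0.77 to 0.87 in the Cdk8-ko lines. Without the line as a block, 0 of 14164 genes passed over all 8 lines, 688 (4.86%) had an unadjusted p under 0.05, and DESeq2 called 17. With the line as a block, 373 genes (2.63%) had an adjusted p under 0.05 from edgeR's quasi-likelihood test, and 134 (0.946%) also a fold change over 2. Of the 10 genes, 1 had an adjusted p under 0.05 with the block, Itgal.

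Itgal fell with Senexin B in 8 of 8 lines. In the wild-type lines 1 to 4, it went from 34.5 to 14.8, from 376 to 136, from 299 to 158 and from 213 to 141 CPM. In the Cdk8-ko lines 1 to 4, it went from 94.5 to 76.8, from 87.0 to 32.5, from 76.0 to 25.6 and from 95.8 to 79.1 CPM. The ratio of Senexin B to DMSO lay between 0.337 and 0.825, and the decrease was smallest in lines 1 and 4 of the Cdk8-ko genotype. With the line as a block, the log2 fold change was -0.97 (SE 0.16, adjusted p = 0.00952, edgeR), and without it -0.88 (SE 0.46, adjusted p = 1.00). Leaving out each line in turn, the blocked log2 fold change stayed between -1.07 and -0.87, with an adjusted p of at most 0.0357. Of all genes tested, 4.55% had the same direction in all 8 lines, 2.59% were lower in all 8, and 1.49% were lower with an adjusted p under 0.05. The log2 fold change of Itgal did not reach the limit of 1, so it is not among the 134 genes past both limits. By genotype, with the block, it was -1.04 (SE 0.18, adjusted p = 0.0629) in the wild-type lines, where 45 of 12989 genes (0.346%) were called, and -0.88 (SE 0.24, adjusted p = 0.292) in the Cdk8-ko lines, where 7 of 13285 (0.0527%) were called. Of 7 alternatives of each of these fits, 3 in the wild-type lines gave Itgal an adjusted p under 0.05. In the Cdk8-ko lines 1 did (DESeq2, adjusted p = 0.0292). The interaction of genotype and Senexin B for Itgal was 0.16 (SE 0.33, adjusted p = 0.997) with the block.

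Itgb2, the partner chain of Itgal, was lower with Senexin B in 7 of 8 lines. The wild-type lines had 91.5, 93.1, 77.6 and 58.7 CPM with Senexin B against 114, 103, 99.3 and 94.5 CPM with DMSO. The Cdk8-ko lines had 39.3, 30.1, 92.3 and 102 CPM against 47.3, 56.7, 107 and 96.8 CPM, and line 4 was the exception. The log2 fold change with the block was -0.35 (SE 0.10, adjusted p = 0.108, edgeR), which did not pass, and 9.03% of all genes tested were lower in 7 or 8 lines. The VLA-4 chains gave 0.02 (SE 0.17, adjusted p = 0.964) for Itga4 and -0.20 (SE 0.11, adjusted p = 0.412) for Itgb1 in the same fit. Itga4 was higher with Senexin B in lines 3 and 4 of both genotypes and lower in lines 1 and 2 of both.

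The ligands of LFA-1 were examined next, since they were on the list of integrin ligands. Icam1 fell with Senexin B in 8 of 8 lines. It went from 27.9 to 38.4 CPM with DMSO to 12.8 to 24.6 CPM with Senexin B in the wild-type lines, and from 23.2 to 34.8 to 13.9 to 25.3 CPM in the Cdk8-ko lines. Its log2 fold change was -0.66 (SE 0.09, adjusted p = 0.00653, edgeR with the block), the smallest p of the 70 other adhesion genes tested, and -0.64 (SE 0.16, adjusted p = 0.532) without the block. Icam2, which also binds LFA-1, was lower in 7 of 8 lines, with -0.44 (SE 0.16, adjusted p = 0.184).

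Of the 70 other adhesion genes tested over the 8 lines, 2 were higher and 2 lower with an adjusted p under 0.05 in the blocked fit, against 2.63% of all genes tested, and none of these 4 was past a fold change of 2. Apart from Icam1, Pxn fell in 8 of 8 lines by 0.28 on the log2 scale (SE 0.07, adjusted p = 0.0431); paxillin, its product, is the adaptor that FAK and PYK2 bind. Tln2, a second talin, rose in 8 of 8 lines with 0.96 (SE 0.21, adjusted p = 0.0373), at levels of 0.05 to 5.61 CPM with DMSO and 0.28 to 8.93 CPM with Senexin B. Fn1, fibronectin, rose in 7 of 8 lines with 0.39 (SE 0.09, adjusted p = 0.0399), and its level with DMSO ranged from 1.01 to 171 CPM between lines. Lama5 had 1.34 (SE 0.33, adjusted p = 0.0579) and did not pass. Being lower in all 8 lines, as Icam1 and Pxn were, was shared by 2.59% of all genes, and having the same direction in all 8, as Tln2 also did, by 4.55%. The median log2 fold change of the 70 genes was -0.05 and that of the 10 genes 0.03, against 0.00 over all 14164.

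Within a genotype, no gene of these lists passed. In the wild-type lines, the smallest p without the block after that of Icam1 (-0.72, SE 0.23) belonged to Parvb, a parvin that binds integrin-linked kinase, at -1.23 (SE 0.47), Pxn at -0.31 (SE 0.12), Nedd9, a docking protein of adhesion signalling, at 0.76 (SE 0.31), and Spp1 at 1.34 (SE 0.56), with an adjusted p of 1.00 for each. With the block, Icam1 had -0.75 (SE 0.17, adjusted p = 0.139), Spp1 1.11 (SE 0.26, adjusted p = 0.173) and Lpxn, leupaxin, a relative of paxillin, -0.49 (SE 0.16, adjusted p = 0.315). Parvb had -1.17 (SE 0.37, adjusted p = 0.315) and Tln2 1.04 (SE 0.36, adjusted p = 0.352) in that fit. Spp1 was higher with Senexin B in wild-type lines 2, 3 and 4 and about level in line 1. In the Cdk8-ko lines with the block, Icam1 had -0.56 (SE 0.12, adjusted p = 0.19) and Fn1 0.47 (SE 0.11, adjusted p = 0.239), followed by Icam2 at -0.64 (SE 0.16), Tln2 at 0.92 (SE 0.25) and Lama5 at 1.36 (SE 0.38), with an adjusted p of 0.254, 0.287 and 0.3 in that order. In the blocked test of whether the response differed by genotype, the smallest p belonged to Spp1 at -1.14 (SE 0.38) and Itga6, the α6 chain of laminin receptors, at 0.65 (SE 0.28), with an adjusted p of 0.991 for both.

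**Figure D3:**
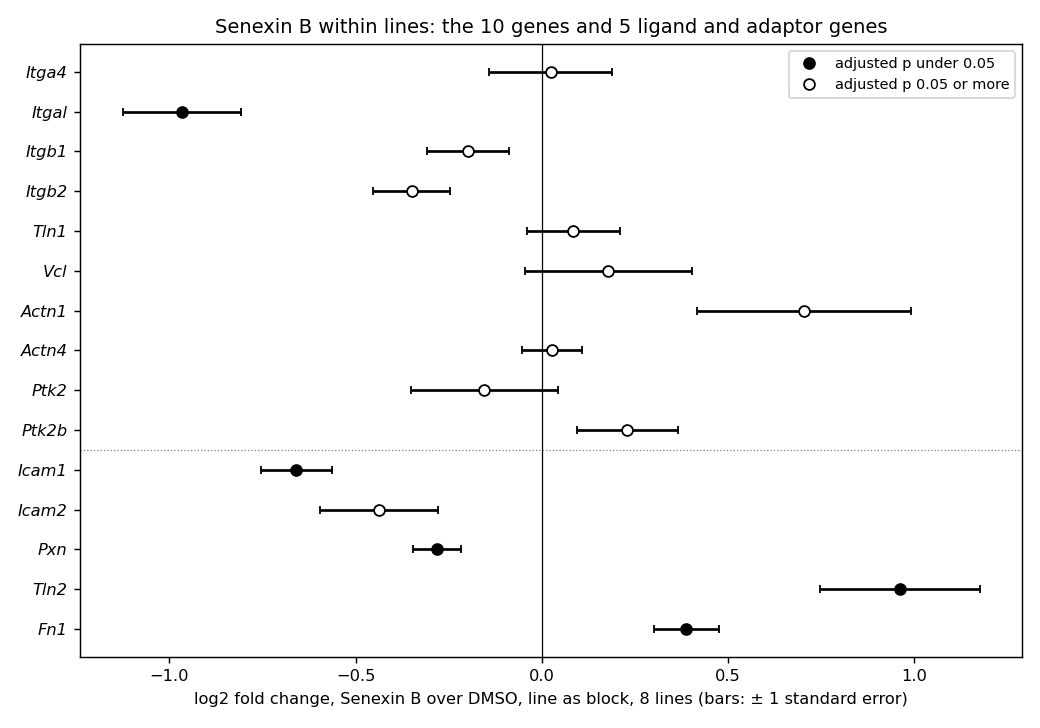
Log2 fold change between Senexin B and DMSO in the fit with the line as a block (8 lines, 16 libraries) for the 10 genes and, under the dotted line, for Icam1, Icam2, Pxn, Tln2 and Fn1, with bars of 1 standard error to each side. Filled points had an adjusted p under 0.05: Itgal at -0.97 is the only filled point among the 10 genes.

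Actn1 was the gene of the 10 with the widest spread of responses. In the wild-type lines it went from 12.4 to 8.93, from 15.9 to 34.0, from 7.99 to 27.0 and from 37.8 to 143 CPM in lines 1 to 4. In the Cdk8-ko lines it went from 50.8 to 31.5, from 53.7 to 58.1, from 108 to 225 and from 129 to 216 CPM. It was thus higher with Senexin B in lines 2, 3 and 4 of both genotypes, by ratios of 1.08 to 3.79, and lower in both lines numbered 1, by ratios of 0.72 and 0.62. The blocked log2 fold change was 0.70 (SE 0.29, adjusted p = 0.244, edgeR) and did not pass. In the wild-type lines alone it was 1.13 (SE 0.38, adjusted p = 0.345). Leaving out each of these lines in turn gave 0.82 to 1.60. The value of 1.60 (adjusted p = 0.00137, edgeR) came without line 1, the only wild-type line in which Actn1 fell. It rests on the other 3 lines, and 1015 genes had an adjusted p under 0.05 in the same fit. Line 1 was singled out by its sign, so nothing is read from this p-value. With all lines kept, Actn1 also passed without the filter on low counts (adjusted p = 1.77e-05, edgeR). In that fit 730 genes had an adjusted p under 0.05, against 46 with the filter. The result for Actn1 in these lines thus depended on the processing. The interaction of genotype and Senexin B for Actn1 was -0.81 (SE 0.53, adjusted p = 0.991).

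The pattern of opposite signs in the lines numbered 1 was noticed after the values were seen, and labels and methods give no reason to treat these lines apart. Ptk2 and Itgb1 showed its mirror image, higher with Senexin B in both lines numbered 1 and lower in the other 6. For Ptk2 the differences of log2(CPM + 1) were 0.60 and 0.18 in lines 1 of the wild-type and Cdk8-ko genotypes and -0.59 to -0.20 in the others. For Itgb1 they were 0.29 and 0.12 against -0.80 to -0.10. The signs of Ptk2 in the Cdk8-ko lines are uncertain, because they rest on few reads. With DMSO and Senexin B, its counts were 46 and 59 in line 1 and 8 and 0 in line 2. They were 192 and 157 in line 3 and 47 and 38 in line 4. So 3 of the 10 genes had one sign in both lines numbered 1 and the other in the remaining 6, a pattern shown by 5.24% of all 14164 genes. Over these genes, the changes in both lines numbered 1 correlated with each other at 0.62 and with those in the other 6 lines at -0.26 to 0.35, while pairs among the other 6 correlated at 0.10 to 0.64; genes are not independent and no test was made.

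**Figure D4:**
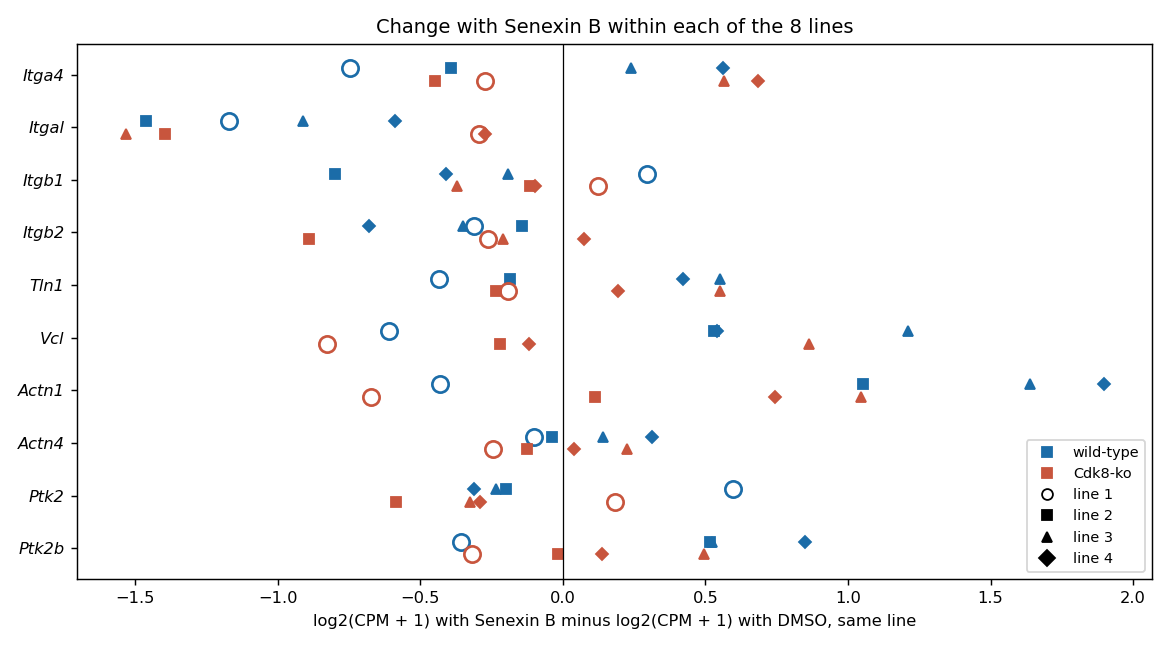
Difference of log2(CPM + 1) between Senexin B and DMSO in each of the 8 lines for the 10 genes (blue wild-type, red Cdk8-ko, symbol by line number, large open circles for lines numbered 1). All 8 points of Itgal lie left of 0, and the open circles of Actn1, Itgb1 and Ptk2 lie across 0 from the other 6 points.

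The responses of several of the 10 genes, not only those of the cytoskeleton, ran parallel from line to line. The within-line differences of Actn1 correlated over the 8 lines at 0.97 with those of Ptk2b, at 0.90 with those of Vcl and at 0.89 with those of Actn4, and at -0.71 with those of Itgb1 and -0.59 with those of Ptk2. The differences of Itga4, an integrin chain, correlated at 0.89 with those of Tln1, at 0.78 with those of Actn4 and at 0.69 with those of Actn1. These values were picked from all pairs of the 10 genes and were not compared with pairs of other genes. They describe 8 lines and share the same 16 libraries and their scaling. Vcl was higher with Senexin B in lines 2, 3 and 4 of the wild-type genotype and line 3 of the Cdk8-ko genotype and lower in the other 4, and its blocked log2 fold change was 0.18 (SE 0.22, adjusted p = 0.761). Tln1 was higher in lines 3 and 4 of both genotypes, with 0.08 (SE 0.13, adjusted p = 0.808), and Ptk2b was higher in 5 lines, with 0.23 (SE 0.13, adjusted p = 0.434). Actn4 and Ptk2 had blocked log2 fold changes of 0.03 (SE 0.08, adjusted p = 0.918) and -0.15 (SE 0.20, adjusted p = 0.765). No gene passed the interaction of genotype and Senexin B in edgeR, 0 of 14164 with or without the block, with 459 (3.24%) and 67 (0.473%) at an unadjusted p under 0.05, none of the 10 genes among them.

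The start regions of Actn1 and Vcl are shown because the changes of these 2 genes ran parallel over the lines (0.90). This pair was picked from all pairs of the 10 genes. Ptk2b, at 0.97 with Actn1, had no start region available, and that of Actn4, at 0.89, is not shown. The changes of Vcl are uncertain too, as 39.9% of its length is shared with Ap3m1. The sequences of Actn1 and Vcl come from RefSeq (GRCm38.p6) and run 5′ to 3′ on the strand of the gene. Each holds 250 bases before the start and 50 after it. They cover chr12:80260314-80260613 on the minus strand for Actn1 and chr14:20929148-20929447 on the plus strand for Vcl. Capitals mark GGGCGG on either strand (CCGCCC where it lies on the other strand) and the CArG box, the motif bound by serum response factor, a regulator of many cytoskeletal genes.
Actn1: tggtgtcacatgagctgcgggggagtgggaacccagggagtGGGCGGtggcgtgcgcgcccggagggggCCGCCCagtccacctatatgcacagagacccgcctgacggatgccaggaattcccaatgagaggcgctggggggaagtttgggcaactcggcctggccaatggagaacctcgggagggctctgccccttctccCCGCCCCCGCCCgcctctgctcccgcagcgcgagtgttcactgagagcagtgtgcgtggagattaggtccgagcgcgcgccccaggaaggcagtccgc
Vcl: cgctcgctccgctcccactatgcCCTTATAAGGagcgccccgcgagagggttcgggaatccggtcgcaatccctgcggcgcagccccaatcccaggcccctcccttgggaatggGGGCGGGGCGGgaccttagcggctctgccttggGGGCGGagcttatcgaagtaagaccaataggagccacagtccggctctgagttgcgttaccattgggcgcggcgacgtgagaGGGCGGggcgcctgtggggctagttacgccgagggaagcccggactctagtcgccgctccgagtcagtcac
Each start region held 4 copies of GGGCGG, those of Vcl at bases 115 and 120 overlapping by 1 base and those of Actn1 at bases 203 and 209 lying side by side, and 35.7% of all 32851 start regions held at least 1. The CArG box was found in Vcl, at bases 24 to 33, and in 1.63% of all start regions, and it was not found in this window of Actn1. CCAAT was found in both, as in 37.4% of all, and TATAAA in neither, as against 13.6% of all. Of the 10 genes, 6 had a start region in the table (Actn1, Actn4, Itgb1, Itga4, Vcl and Tln1), and of these Vcl alone held a CArG box. A match is a description of letters and no evidence of binding.

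The genes most like Ptk2 and Actn1 were sought by the Pearson correlation of log2(CPM + 1) over the 8 line means among 14164 genes, as a description. For Ptk2 they were Sf3a2 (0.94), Gm8580 (0.92) and Dbp (0.92), and for Actn1 they were E230032D23Rik (0.98), Amz1 (0.97) and Rdh12 (0.96). These are the highest of 14164 values over 8 points and were picked as such. The line means include the genotype difference for which the rule names Ptk2 and Actn1, and they do not show the change with Senexin B. By group means, the genes listed for Actn1 were lower with Senexin B in both genotypes, while Actn1 was higher. Some were low: E230032D23Rik had group means of 1.27 to 2.60 CPM and Gm8580 of 0.34 to 0.72 CPM.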

How the data were processed

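Poly(A) RNA was sequenced in 16 libraries (50-base single-end reads, SENSE kit). The deposited values are raw counts per gene: according to the file headers the authors ran featureCounts 1.5.1 over exons of GENCODE M13 (GRCm38), with no strand option, after Trimmomatic and STAR. The SENSE kit keeps strand, which the counting did not use. Per library, 13145876 to 18349425 reads were counted, and no pair of libraries agreed within sampling noise.

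Genes with low counts were removed with edgeR 4.0.16 (R 4.3.3, limma 3.58.1) at its default limits, counts were scaled by TMM, and quasi-likelihood tests compared genotypes with DMSO and with Senexin B (4 lines against 4), Senexin B within each genotype and over 8 lines, and the interaction. Calls needed an adjusted p (Benjamini-Hochberg over all genes tested) under 0.05 and a log2 fold change beyond 1. Line differences used log2(CPM + 1). The scripts were tested on simulated data. Levels and differences were summarised with Python 3.11.15, pandas 2.3.3 and matplotlib 3.10.9.

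The labels number the replicates 1 to 4 in each group but do not say that a number marks a line. DMSO and Senexin B libraries of the same number deviated together from their group means in each of 8 pairs (r from 0.59 to 0.87, above the limit of 0.1), so the number was taken as the line and as a block for Senexin B. Across genotypes the numbers were not taken as pairs. Libraries of the same number had r from -0.15 to 0.42, with a mean of 0.009 with DMSO and 0.11 with Senexin B. Unlike numbers had r from -0.28 to 0.29 with DMSO and from -0.32 to 0.24 with Senexin B. Whether a number marks something shared by both genotypes was not tested, so the responses of the 8 lines may not be independent.

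The 10 genes, the other gene lists and the comparisons were chosen with earlier results of these data known. The text names all 10 genes, the other listed adhesion genes called in a comparison, up to 5 per comparison (for Senexin B, without and with the block) with the smallest unadjusted p under 0.05, the study's own 7 focal adhesion genes, Cdk8, and the 3 genes most like Ptk2 and Actn1. Alternatives were DESeq2 1.42.0, RLE scaling, no filter on low counts, other limits, all libraries in 1 fit, summed libraries of each line, and leaving out each library or line; those run within the blocked fits, and the blocked fits without a limit on the fold change, were added after the data were seen. Start regions came from a RefSeq table (GRCm38.p6), which held 6 of the 10 genes.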

Additional observations from a re-analysis of the deposited data

Results flagged for a closer look

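In 4 of 40 groups of 4 libraries (10 genes in 4 groups) the highest or lowest library stood apart from the others, with a gap to its nearest neighbour, as a share of the group's range, above Dixon's 95% critical value; chance gives about 1 in 20 groups. Itgb1 was high in line 1 of the Cdk8-ko genotype under both treatments, with 148 CPM against 102 CPM in the next line with DMSO (share 0.889) and 162 against 91.9 CPM with Senexin B (share 0.842). Itga4 was high in wild-type line 4 with Senexin B, at 796 CPM against 308 CPM in the next line (share 0.867). Itgal was low in wild-type line 1 with Senexin B, at 14.8 CPM against 136 CPM in the next line (share 0.843).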

How the results depend on the processing

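Of 490 recomputed values of the 10 genes for Senexin B and the interaction, 467 kept their direction and side of the threshold, 7 passed the threshold and 16 changed sign; the cause was not tested. Of 270 values for the genotype, given without a test, 19 changed sign. Between genotypes, edgeR called 1 gene with DMSO, DESeq2 20, the fit with the replicate number as a block 0, and leaving out a library 0 each time. With Senexin B the genotypes gave 0 calls, but 3 with DESeq2 and 1 each without the low-count filter, with all 16 libraries in 1 fit and at an adjusted p under 0.1. Without the block, Senexin B gave 0 calls in the wild-type lines, 17 with DESeq2 and 3 without the filter; over 8 lines it gave 0, 17 with DESeq2, 1 at an adjusted p under 0.1, and 0 to 5 on leaving out a library (5 without Cdk8-ko line 1 with Senexin B).

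With the replicate block, 45 genes were called in the wild-type lines (46 without a limit on the fold change), 7 (7) in the Cdk8-ko lines and 134 (373, with 1 of the 10 genes) over 8 lines. At an adjusted p under 0.05 the blocked counts became 730 (2 of the 10), 258 and 601 without the filter, and 293 (1 of the 10), 199 (1 of the 10) and 764 (2 of the 10) with DESeq2, in which Itgb2 over 8 lines had an adjusted p of 0.0478. Leaving out a line gave 0 to 1015 genes and 0 to 4 of the 10 in wild-type (1015 and 4 without line 1), 0 to 44 in Cdk8-ko (44 without line 1), and 156 (without wild-type line 3) to 430 over 8 lines. Senexin B and interaction values that changed sign on leaving out a library or line were not called: without the block, Itgb2 in Cdk8-ko lines (-0.51 to 0.017), over 8 lines Ptk2 (-0.51 to 0.37), Actn4 (-0.017 to 0.089) and Itga4 (-0.12 to 0.24), and the interaction for Actn1 (-1.51 to 0.30) and Itgal (-0.056 to 0.67); with the block over 8 lines, Actn4 (-0.015 to 0.073) and Itga4 (-0.071 to 0.13). Genotype values that changed sign were at most 0.22 in size: with DMSO Itga4 (to -0.005) and Tln1 (to -0.062), each without 1 library, and with Senexin B Ptk2b (to -0.028), Itgb1 (to -0.24), Tln1 (to -0.067), Vcl (to 0.14) and Actn4 (to -0.11), whose value near 0 also turned without the filter and with the block. The low counts of Ptk2 in Cdk8-ko lines limit its fold change.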
